A study of Mus musculus with 2 samples.

Results

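The replication-dependent histone gene clusters were described through the peaks that a KLF4 chromatin immunoprecipitation sequencing (ChIP-seq) library placed in them. KLF4 is a zinc finger transcription factor. The peaks were selected by position, as those whose interval overlapped either of 2 windows on the mm9 build of the mouse genome: the Hist1 window on chromosome 13 at 21700000 to 24000000 and the Hist2 window on chromosome 3 at 95950000 to 96150000. The windows held 50 and 8 peaks, 58 of the 8148 in the list (0.712%). They were chosen with the peak density of this list in view, so the numbers, densities and spacing of their peaks are descriptions and carry no test. With 1 library there are no replicates, and peaks of 1 library are not replicates of each other, so widths and heights are also given without a p-value.

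The library came from leukaemia cells that expressed GFP and both CD4 and CD8, sorted from mouse bone marrow 4 weeks after the transplant that started a T cell acute lymphoblastic leukaemia driven by NOTCH1. Its strain is given as Klf4flox/flox vav-Cre on a C57BL/6 background, in which Cre recombinase is expressed in blood cells and their precursors. Its genotype label is KLF-4 KO, while the input library of the series has the same strain label and the genotype label Normal. If the knockout label holds, the antibody had no intact target, and no peak below is shown to be a place where KLF4 was bound. No peak list of the input library or of another genotype was analysed here. The number of animals behind the library is not given in the sources used here.

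Replication-dependent histone genes encode the H2A, H2B, H3 and H4 proteins of the nucleosome core and the H1 linker histone. They are short, mostly lack introns, are transcribed in S phase when new DNA is packaged, and end their messenger RNA in a stem-loop in place of a poly(A) tail. Many similar copies lie side by side, in mammals mainly in the Hist1 cluster and the smaller Hist2 cluster, where their transcription is organised in nuclear histone locus bodies. KLF4 belongs to the Krüppel-like family, whose zinc fingers bind CACCC elements and related GC-rich DNA, and it restrains division in several cell types.

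The gene content of the clusters was taken from the RefSeq gene table of GRCm38.p6, a later build than that of the peaks, by name and order only. On chromosome 13 the order from the first to the last histone gene held 255 genes, 55 of them histone genes (6 H1, 15 H2A, 14 H2B, 9 H3 and 11 H4 genes, of which 2 are pseudogenes). The histone genes fell into 3 groups when a group was ended by 10 or more other genes in a row. The first group, from H2bc13 to H2ac24, had 18 histone genes, the second, from H2ac12 to H2bc11, had 5, and the third, from H4c8 to H2ac1, had 32. Between the first and second groups stood 40 genes, 31 of them transfer RNA (tRNA) genes, together with Zfp184, Pom121l2 and Prss16, which encodes a serine protease of the thymic cortex. They also include H4bc24, which the name rule for histone genes did not take. Between the second and the third groups stood 147 genes. Of these, 75 were Vmn1r genes and pseudogenes, which encode pheromone receptors of the vomeronasal organ, and 46 were tRNA genes, and the few other protein-coding genes included Abt1 and the butyrophilin genes Btn1a1 and Btn2a2. Among the genes of the third group stood Hfe, a regulator of iron uptake, Trim38 and the anion transporter genes Slc17a1, Slc17a2, Slc17a3 and Slc17a4. On chromosome 3 the 10 histone genes (4 H2A, 2 H2B, 3 H3 and 1 H4) were interrupted by 1 other gene.

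**Figure D1:**
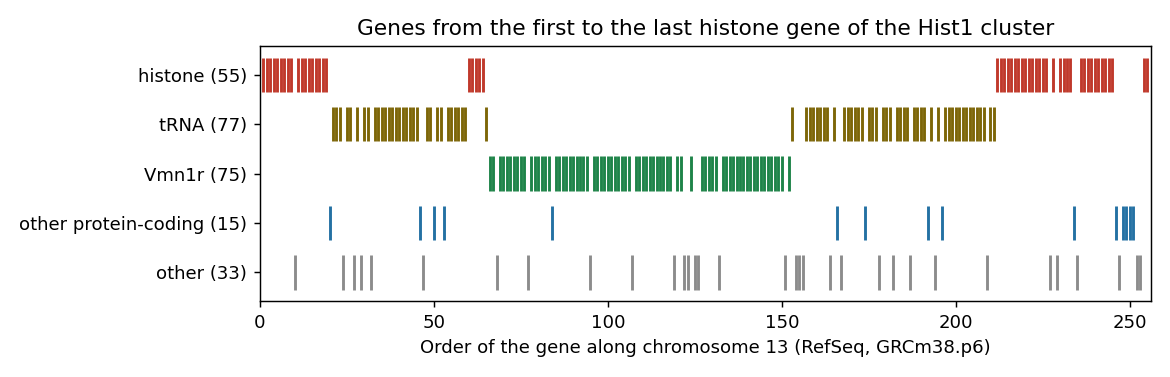
Genes in the RefSeq order from the first to the last histone gene of the Hist1 cluster; each tick is 1 gene, the horizontal axis is its order along chromosome 13 and the rows are gene classes with their numbers. The 55 histone genes stand in 3 groups of 18, 5 and 32, and the 75 Vmn1r entries all lie between the groups of 5 and 32.

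Promoter sequences show what the proximal DNA of these genes looks like beside the CACCC core that KLF proteins recognise. The RefSeq promoter table (GRCm38.p6) held 59 promoters for 58 of the 65 histone genes. The following are the last 150 bases before the transcription start, 5′ to 3′ on the gene's strand, of 1 promoter for each group of histone genes. Each is the promoter of its group with the most kinds of 4 motif cores, and the capitals mark those cores. They are the KLF family core GGGTG (on the other strand, CACCC), the GC box core GGGCG (other strand, CGCCC), the core CCAAT (other strand, ATTGG) and the TATA box core TATAAA (other strand, TTTATA), all searched on both strands.
H1f5 (linker histone, the first Hist1 group, chromosome 13, minus strand): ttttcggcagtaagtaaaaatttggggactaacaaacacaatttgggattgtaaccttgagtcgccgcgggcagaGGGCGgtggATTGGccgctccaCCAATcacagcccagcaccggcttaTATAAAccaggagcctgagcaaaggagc
H4c9 (histone H4, the second Hist1 group, chromosome 13, minus strand): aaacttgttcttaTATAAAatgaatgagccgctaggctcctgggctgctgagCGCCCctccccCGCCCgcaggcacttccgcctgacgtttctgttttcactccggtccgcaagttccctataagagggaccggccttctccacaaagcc
H4c4 (histone H4, the third Hist1 group, chromosome 13, plus strand): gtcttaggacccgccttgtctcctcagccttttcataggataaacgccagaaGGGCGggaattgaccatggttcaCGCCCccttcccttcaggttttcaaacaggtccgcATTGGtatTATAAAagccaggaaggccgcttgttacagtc
H2ac21 (histone H2A, Hist2, chromosome 3, plus strand): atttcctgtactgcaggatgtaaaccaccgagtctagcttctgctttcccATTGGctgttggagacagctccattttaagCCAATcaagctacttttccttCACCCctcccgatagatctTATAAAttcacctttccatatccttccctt

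In 3 of these sequences a TATAAA core began 28 to 32 bases before the start, and H2ac21 also has a CACCC core 49 bases before it. H4c9 has no CCAAT core in this stretch and its TATAAA core begins 137 bases before the start. Over the whole 250 bases before the start, the CCAAT core was found in 49 of 59 histone promoters (83.1%), against 33.8% of all 32851 promoters in the table. It was in all 17 H2A, 15 H2B and 6 H1 promoters, in 8 of 10 H3 promoters and in 3 of 11 H4 promoters. The TATAAA core was in 28 histone promoters (47.5%, against 12.4% of all). The GC box core GGGCG was in 31 (52.5%, against 43.7%). The KLF family core GGGTG was in 15 histone promoters (25.4%, against 52.0% of all). It was in 11 of 51 Hist1 promoters and 4 of 8 Hist2 promoters, and in none of the 6 H1 promoters. KLF proteins also bind related GC-rich DNA, so the GGGTG count does not cover all the sequences they recognise. All of these are counts of letters and not of sites. Neighbouring histone genes are often transcribed away from each other from a shared stretch, and 18 of the 59 promoter windows overlap another one, so they are not independent. The cores may overlap one another, and no mm9 sequence was read, so the sequence under the peaks themselves is not shown.

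The peaks of the Hist1 window lay in 3 runs, and a run here is a set of peaks with less than 100 kb between neighbours. The first run had 12 peaks over 73.1 kb (21806512 to 21879566), the second had 7 over 77.2 kb (22066050 to 22143299) and the third had 31 over 396 kb (23460556 to 23856686). By this definition every peak is in a run. The runs took up 23.8% of the window, at 91.5 peaks per Mb of run. That density leaves out every gap of 100 kb or more, and the third run still has a gap of 83.9 kb inside it. Set beside the gene order, the runs of 12, 7 and 31 peaks and the groups of 18, 5 and 32 histone genes are equal in number and have the same order of size. That match rests on the limits used. Runs ended at gaps of 50 kb would number 7 and at gaps of 200 kb 2, and histone groups ended by 8 other genes in a row would number 4, of 18, 5, 30 and 2 genes. The limit of 10 genes was chosen after the gene order was seen. Peaks and genes come from different builds, so no peak was assigned to a gene, and which peaks lie at histone genes and which at tRNA or other genes was not tested.

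Empty stretches, of 100 kb or more without a peak, made up the other 76.2% of the Hist1 window. The longest ran for 1317 kb from 22143300 to 23460555, between the second and the third runs. It was not extreme for the chromosome, since 23 of the 318 gaps between neighbouring peaks of chromosome 13 (7.23%) were longer. In the gene order the 75 Vmn1r entries lie between the second and the third histone groups, together with 46 tRNA genes and others. Which of these genes lie in the empty stretch was not tested. The stretch between the first and second runs, 21879567 to 22066049, was 186 kb long. The remaining empty stretches, of 107 kb and 143 kb, lay at the low and high edges of the window. Outside the window the nearest peaks were far away, at 21271261 to 21273259 (height 15), 427 kb below the low edge, and at 24466220 to 24467084 (height 12), 466 kb above the high edge.

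**Figure D2:**
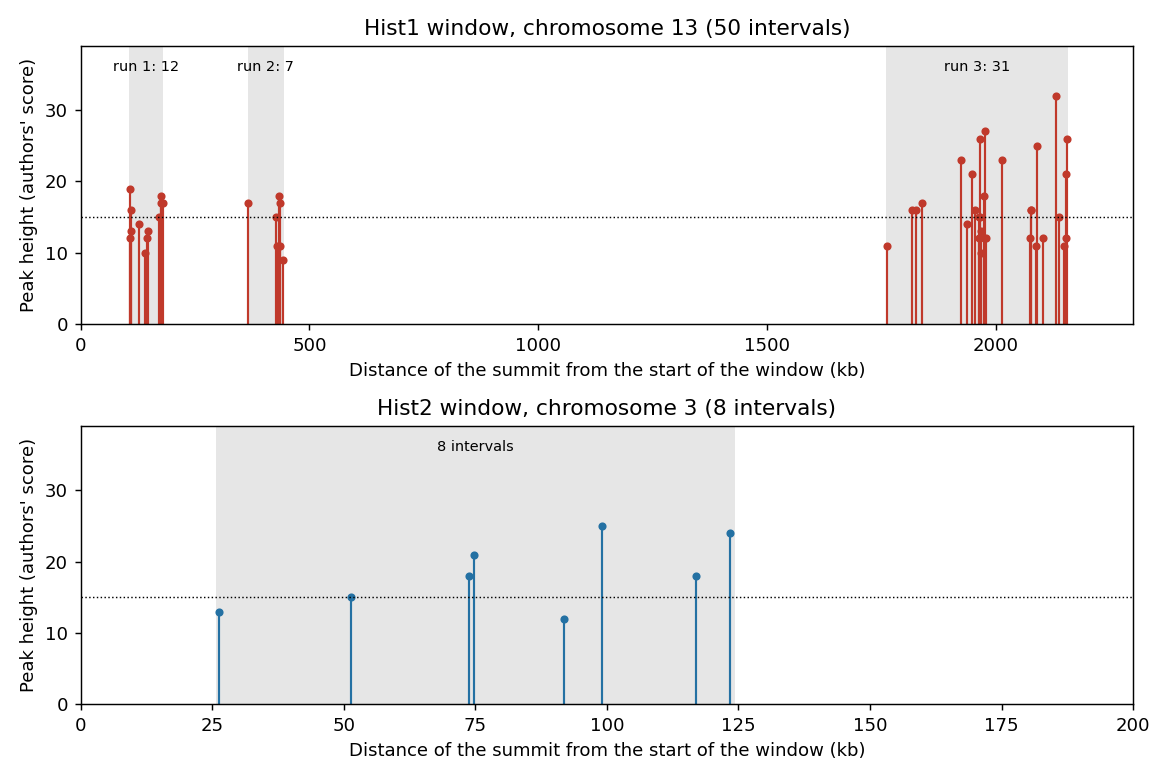
Peak height (the authors' score) against the distance of each summit from the start of its window in kb, for the Hist1 window (top) and the Hist2 window (bottom). Each stem is 1 peak, grey bands span the runs, and the dotted line is the median height of the list, 15. The third Hist1 run holds all 9 Hist1 peaks of height 21 or more, a height that 19.9% of the list reached.

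The heights of the first and the second runs went up to 19 and 18, and their middle heights were those of the list. In the order of position, the peaks of the first run had heights of 12, 19, 16, 13, 14, 10, 12, 13, 15, 17, 18 and 17. The height is the authors' score at the summit, whose scale is not named, and its median over the list was 15. The run opened with 4 peaks that nearly touched, from 21806512 to 21810639, and the first of them, 21806512 to 21807795, was 1284 bp wide. Its last peak, 21878934 to 21879566, was 633 bp wide. The widest peak of the run, at 21870693 to 21872816, spanned 2124 bp with a height of only 15. The second run had heights of 17, 15, 11, 18, 17, 11 and 9. Its first peak, 22066050 to 22066915 (866 bp), stood 60.4 kb from the others, and its last, 22142669 to 22143299 (631 bp), had the lowest height in the window. None of these 19 peaks reached 24, the 90th percentile of height in the list, which 11.2% of the list reached. With so few peaks this count is near that share. The median height of the list was reached by 6 of 12 peaks in the first run and 4 of 7 in the second, near the list's share of 57.3%.

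The third run held 31 of the 50 peaks of the window. Among its peaks were the 9 tallest (height 21 or more, reached by 19.9% of the list) and 3 of the 4 widest. The 90th percentile of height in the list was reached by 5 of its 31 peaks, against 11.2% of the list. The tallest of all 50, at 23830248 to 23832650, had a height of 32 and was also the widest, at 2403 bp, and 2.64% of the list was as tall or taller. The next had heights of 27 (23676501 to 23677556, 1056 bp), 26 (23665888 to 23666489, 602 bp), 26 (23855098 to 23856686, 1589 bp) and 25 (23789216 to 23790838, 1623 bp). The peak of height 26 and 602 bp is tall for its width. Heights of 23 were reached at 23622366 to 23624188 (1823 bp) and 23712644 to 23714796 (2153 bp), and a height of 21 at 23646468 to 23648630 (2163 bp). The narrowest peak, at 23848562 to 23849115, was 554 bp wide and had a height of 11. The run began with the peak at 23460556 to 23461521 (height 11, 966 bp) and ended with the peak of height 26 and 1589 bp. Its median height was 16, against 14.5 in the first run and 15 in the second, and its median width was 938 bp, against 814.5 and 859 bp.

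The tightest packing was inside the third run, where 10 peaks lay within 16.4 kb (23661860 to 23678210). The first 7 of them had gaps of less than 1 kb among themselves and together spanned 7176 bp (23661860 to 23669035). Their heights were 12, 15, 12, 15, 26, 13 and 10 and their widths 602 to 1124 bp. The peak of height 26 thus stood among low neighbours. After merging peaks at most 1 kb apart, only 2 of the 7472 regions of the whole list joined as many as 7 peaks, and the other, on chromosome 11, spanned 35682 bp. Of the 32 merged regions in the Hist1 window, 9 joined several peaks (28.1%, 95% exact interval 13.7 to 46.7%), against 23 of 244 on the rest of chromosome 13 (9.43%, 6.07 to 13.8%) and 7.35% in the list. The 95% intervals given here and below reflect counting error alone, and clustering of peaks makes them too short.

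The Hist2 window held 8 peaks in a single run. From the low to the high end they had a height of 13 at 95975770 to 95976717 (948 bp), 15 at 96000689 to 96001981 (1293 bp), 18 at 96023030 to 96024564 (1535 bp) and 21 at 96024586 to 96026100 (1515 bp). The last 2 of these were only 21 bp apart. The other 4 had a height of 12 at 96041159 to 96042285 (1127 bp), 25 at 96048617 to 96049319 (703 bp), 18 at 96065797 to 96068142 (2346 bp) and 24 at 96072896 to 96074391 (1496 bp). The tallest was thus the narrowest, and the widest had a height of 18. All 8 lay within 98.6 kb, and the nearest peaks outside the window were at 95908178 to 95908912 (height 14), 41.1 kb below its low edge, and at 96218018 to 96219202 (height 11), 68.0 kb above its high edge. In the RefSeq order the protein-coding neighbours of the Hist2 genes are Bola1 and Sv2a on one side and Fcgr1 on the other, and whether any of the 8 peaks lies at these was not tested.

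Both windows were dense against the rest of their chromosomes. The Hist1 window held 21.7 peaks per Mb and the rest of chromosome 13 held 2.35, from 269 peaks, a ratio of 9.25 (95% exact interval 6.70 to 12.5). It had 50 of the 319 peaks of the chromosome (15.7%) on 1.97% of its span. Of 48 other stretches of 2.3 Mb laid end to end on chromosome 13, the fullest held 24 peaks and the median was 4.5. The Hist2 window held 40.0 peaks per Mb against 2.22 on the rest of chromosome 3, from 337 peaks, a ratio of 18.0 (7.72 to 35.9). Part of the chromosome just below that window was dense too, with 15 peaks in the 500 kb at 95000001 to 95500000. The ratio therefore does not set the Hist2 window apart from its surroundings. Among 758 other stretches of 200 kb on chromosome 3, 582 were empty and 3 held 8 or 9 peaks, so the number in the Hist2 window was not the highest of its chromosome. Peaks covered 2.22% of the Hist1 window and 0.294% of the rest of chromosome 13, and 5.48% of the Hist2 window and 0.286% of the rest of chromosome 3.

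Neighbouring Hist1 peaks were close together. The median gap was 3.20 kb, against 113 kb on the rest of chromosome 13, and 35 of 49 gaps were at most 10 kb (71.4%, 56.7 to 83.4%), against 45 of 267 (16.9%, 12.6 to 21.9%) and 21.5% in the list. Gaps of at most 1 kb numbered 18 of 49 (36.7%, 23.4 to 51.7%), against 25 of 267 (9.36%, 6.15 to 13.5%) and 8.32% in the list. Of the 49 gaps, 9 were under 100 bp, against 219 of 8127 in the list (2.69%). In the Hist2 window the median gap was 15.1 kb, against 94.7 kb on the rest of chromosome 3. There 3 of 7 gaps were at most 10 kb (42.9%, 9.90 to 81.6%), against 54 of 335 on the rest of chromosome 3 (16.1%, 12.3 to 20.5%) and 21.5% in the list. The wide Hist2 interval includes both of those shares.

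Hist1 peaks as deposited were narrow, while their heights were close to those of the list. The median width was 870 bp (quartiles 665 and 1161 bp), against 1102 bp (848 and 1444 bp) on the rest of chromosome 13. A width at or below the lower quartile of the list, 896 bp, was found for 26 of 50 (52%, 37.4 to 66.3%), against 88 of 269 on the rest of the chromosome (32.7%, 27.1 to 38.7%) and 25% in the list. The median width of the list, 1137 bp, was reached by 14 of 50 (28%) against 50% in the list, its upper quartile by 7 of 50 (14%) against 25%, and 2000 bp by 4 of 50 (8%) against 10.7%. The last of these shares is near that of the list. The median height was 15 on both sides of the comparison. The list's median height was reached by 29 of 50 Hist1 peaks (58%) against 57.3% in the list, and its 90th percentile by 5 of 50 (10%) against 11.2%.

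The narrow widths were found at middle heights. In the list, height and width rose together (Spearman rho = 0.53 over 8148 peaks, which share 1 library), and in the Hist1 window rho was 0.33 over 50 peaks. Among peaks of height 15 to 19, the 20 Hist1 peaks had a median width of 863 bp, and the 2698 peaks outside both windows had one of 1206 bp, above 17 of the 20. Among heights 12 to 14, 12 of 13 Hist1 peaks were narrower than the median of the other peaks, 767 against 1007 bp. This was not seen at heights of 20 to 33, where 9 Hist1 peaks had a median of 1623 bp and the others 1500 bp, nor at heights of 8 to 11, where the medians were 912.5 and 851 bp. The lower median width did not hold after merging, which widens regions most where neighbours are closest. With peaks at most 1 kb apart merged, the 32 Hist1 regions had a median width of 1347 bp and the rest of chromosome 13 one of 1184 bp, the opposite direction. Whether neighbouring peaks are separate or parts of a broader signal was not tested.

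The 8 Hist2 peaks had widths of 703 to 2346 bp with a median of 1394.5 bp, against 1130 bp on the rest of chromosome 3. The median width of the list was reached by 5 of 8, against 49.3% on the rest of the chromosome and 50% in the list. Their heights of 12 to 25 had a median of 18, against 16, and 6 of 8 reached the median height of the list, against 57.9% on the rest of the chromosome and 57.3% in the list. With 8 peaks these counts are near those shares, and no difference in width from the Hist1 peaks was tested.

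**Figure D3:**
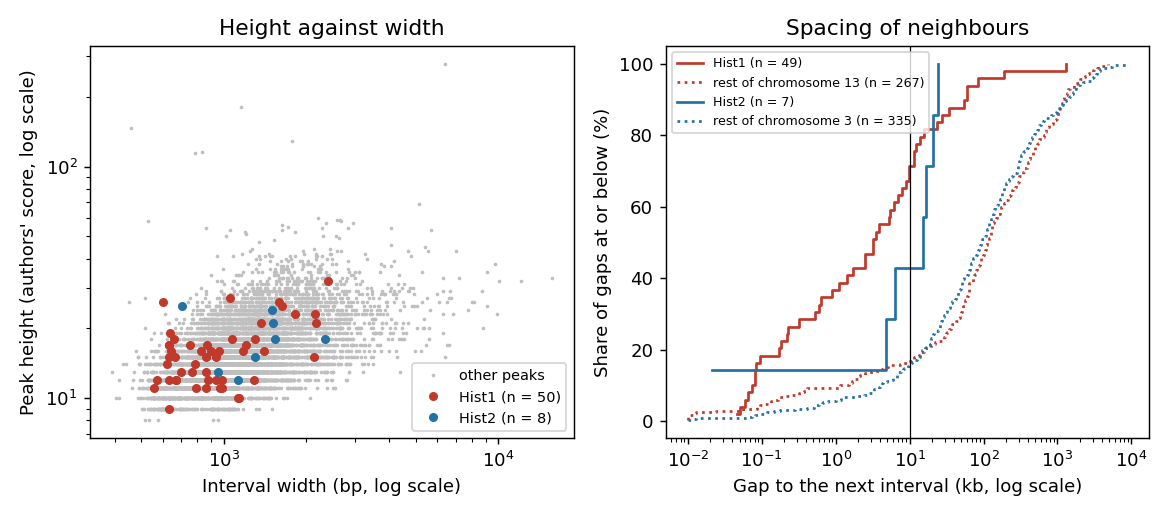
Left, peak height (the authors' score) against width in bp, both on log scales, for Hist1, Hist2 and all other peaks; right, the share of gaps between neighbouring peaks at or below each length in kb (log scale), with a line at 10 kb. Hist1 points of middle height lie towards the narrow side of the cloud, and 71.4% of Hist1 gaps but 16.9% of those on the rest of chromosome 13 are at most 10 kb.

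Other dense stretches of the genome gave a second comparison. Windows of 500 kb on a fixed grid with 10 or more peaks numbered 144 apart from the 4 that overlap the histone windows, and their median widths ran from 863 to 1785.5 bp. The grid window over most of the third Hist1 run held 30 peaks, and only 1 of the 144 held more. Its median width was 918 bp, and 3 of the 144 had a smaller one. The grid window over the first Hist1 run had 12 peaks and a median width of 814.5 bp, below all 144. In height these windows were ordinary, with medians of 16 and 14.5 against a median of 15.25 over the 144. Close spacing was shared with few of them: 75.9% of gaps in the window with 30 peaks were at most 10 kb, against a median of 40% over the 144, and 5 of the 144 had a higher share. After merging peaks at most 1 kb apart, the window with 30 peaks had 20 regions of median width 1396.5 bp, and 87 of the 144 had a smaller median, so its place at the narrow end was lost. The grid windows over Hist2 held 10 and 11 peaks, and they lay apart in width. The first had a median width of 988 bp, with 8 of the 144 narrower, and the second one of 1293 bp, with 93 of the 144 narrower. Of the Hist2 peaks, the first of these grid windows takes in only the lowest, at 95975770 to 95976717 (948 bp). Its median width is therefore mostly that of peaks outside the Hist2 window. The second also takes in peaks outside it.

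**Figure D4:**
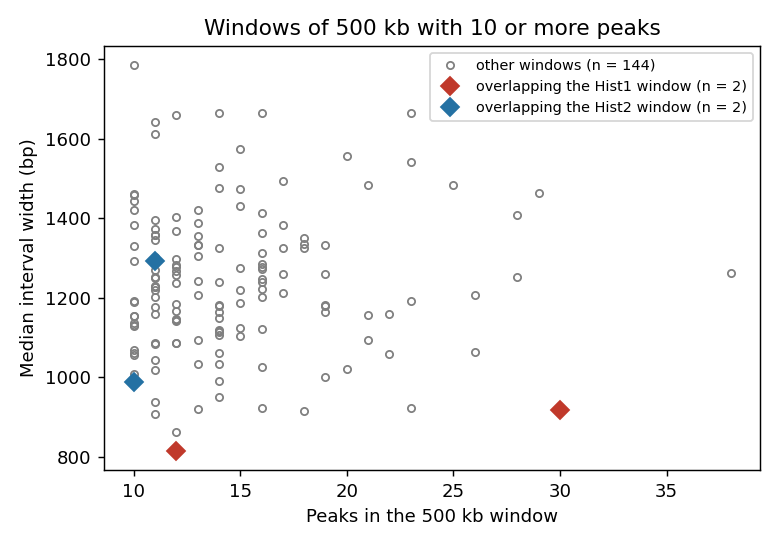
Median peak width in bp against the number of peaks for every 500 kb window with 10 or more peaks; each symbol is 1 window, filled where it overlaps a histone window. The Hist1 windows lie at the lower edge, at 814.5 and 918 bp. The windows that overlap Hist2 lie at 988 and 1293 bp, and the peaks of the first of them are mostly outside Hist2.

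Histone genes of the same type within a cluster are similar copies. How the authors treated reads that align to several places is not given in the sources used here. The part of such reads in the number, height and width of these peaks was not tested.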

How the data were processed

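One KLF4 ChIP library was analysed of the 2 libraries in the series; samples were grouped by antibody. Per the submitters' processing notes, BWA 0.6.1, SICER 1.1 and MACS and the builds hg19 and mm9 were named, without roles. Depth is unknown, and the sources used here do not give the calling threshold, the read filters or any use of the input. The score in the first track, called the height, is the authors' value per peak, deposited as whole numbers of unnamed scale. The other columns the authors deposited are positions in base pairs. Tracks were joined by row order, and 8148 of 8148 summits lay inside their interval; 75.1% of summits are multiples of 32 bp. Interval starts are printed counted from 1.

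The members, lists and limits were chosen with earlier results of these data known. Gaps ran from the end of a peak to the start of the next. The rest of a chromosome is its span from first to last peak without the window. Intervals are 95% exact binomial (Clopper-Pearson) for shares and ratios and order-statistic for medians. Peaks named are all of Hist2 and, in Hist1, the 8 tallest, the 4 widest, the narrowest, the first and last of each run and those beside the edges; those of the 7-peak region, and the limit of 10 genes between histone groups, were chosen after their values were seen. Alternatives were the membership rule, window edges, peaks at or above the median height, merging within 1 kb, gap and run limits and a stricter dense window. The summaries were tested on simulated data. Calculations used Python 3.11.15, numpy, pandas and scipy 1.17.1.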

Additional observations from a re-analysis of the deposited data

How the results depend on the processing

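Of 47 alternatives over 13 results, 38 left the value within its 95% interval, or a count within 1.5 times. Of the others, merging peaks within 1 kb gave 32 Hist1 regions in place of 50 peaks, a density ratio of 6.53, 54.8% of gaps of at most 10 kb (8.26% on the rest of chromosome 13) and a median width of 1347 bp. The same merging, an alternative chosen after seeing the data, put 60.4% of the other dense windows below the Hist1 window in median width, in place of 2.08%. A minimum height at the list's median left 29 Hist1 peaks. A gap limit of 5 kb gave 55.1% of Hist1 gaps against 15.4% on the rest of the chromosome. Ending runs at gaps of 50 kb gave 7 Hist1 runs in place of 3, while the limit of 200 kb, which is among the 38, gave 2. Trimming the Hist2 window to its peaks gave a density ratio of 36.6, which follows from the shorter length. Widening that window by 100 kb at both ends gave 11.3, which is among the 38. Leaving out the 7 peaks of the largest Hist1 region, also chosen after seeing the data, was among the alternatives that did not move the median width. No paired analysis was possible because a single library was analysed, and for the same reason no replicate could be left out. With the calling threshold unknown, an empty stretch says only that no peak was listed there.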
